A study of Rattus norvegicus with 6 samples.

Results

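DNA methyltransferases write methyl groups on cytosine and histone deacetylases remove acetyl groups from histone tails. Enzymes of both families whose array rows could be named are described here in skeletal muscle of newborn rats. The members were chosen by symbol: *Dnmt1*, *Dnmt3a*, *Hdac1* to *Hdac6* and *Sirt1*, 9 genes in all, each matched through the RefSeq identifier of its array row. A row was matched for 4 of the 9, *Dnmt1* (NM_053354), *Dnmt3a* (NM_001003957), *Hdac1* (NM_001025409) and *Hdac3* (NM_053448), each with 1 row among the 26299 features of the arrays. *Hdac2*, *Hdac4*, *Hdac5*, *Hdac6* and *Sirt1* had no matched row and were not analysed here. The class I deacetylases were therefore represented by *Hdac1* and *Hdac3* alone, and a comparison of class I with class II could not be made.

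The study compared pups by weight at birth. RNA came from skeletal muscle of 6 male Wistar rats aged 1 day, 3 pups of low birth weight (LBW) and 3 of average birth weight (ABW), each hybridised to 1 NimbleGen single-colour array. The labels name no treatment and no genetic change in either group. LBW pups lay between the 5th and the 25th percentile of birth weight, whereas the ABW range is labelled 25 to 75 for the samples and 50 to 75 in the protocol. The labels call the 3 pups of a group biological replicates without naming the litters, so that the p-values below measure the spread between these pups, which may include the spread between litters. Values are the deposited log2 signals, in which a difference of 1 is a 2-fold difference. The arrays carry no detection call, and their medians lay between 8.695 and 8.757.

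Methylation of CG sites is copied onto the new DNA strand after replication by the maintenance enzyme Dnmt1, while Dnmt3a belongs to the de novo enzymes, which can methylate sites that carried no mark. Hdac1 and Hdac3 are class I deacetylases of the nucleus. Hdac1 works in corepressor complexes such as Sin3 and NuRD and is recruited by the retinoblastoma protein to E2f target genes, whereas Hdac3 is the catalytic subunit of the NCoR and SMRT corepressors. In skeletal muscle, class IIa deacetylases, a part of class II, hold back Mef2 factors, and Sirt1 is a deacetylase that depends on NAD.

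The sequence before the annotated start differs between the genes in its CG content, and since CG sites are what the methyltransferases act on, the 250 bases before the RefSeq start are shown for *Dnmt1*, *Dnmt3a* and *Hdac1* (build GRCr8, 5′ to 3′ on the strand of the gene). Capitals mark the GC box GGGCGG, which the search took on either strand. A match of these letters is a description and no evidence of a bound factor.
Dnmt1, chr8:27762842-27763091, minus strand: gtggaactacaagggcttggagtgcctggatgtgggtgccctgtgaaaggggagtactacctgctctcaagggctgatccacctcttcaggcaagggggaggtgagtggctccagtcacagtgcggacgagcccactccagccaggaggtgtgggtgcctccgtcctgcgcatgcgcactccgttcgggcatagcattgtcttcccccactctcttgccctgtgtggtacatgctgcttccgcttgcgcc
Dnmt3a, chr6:32598352-32598601, plus strand: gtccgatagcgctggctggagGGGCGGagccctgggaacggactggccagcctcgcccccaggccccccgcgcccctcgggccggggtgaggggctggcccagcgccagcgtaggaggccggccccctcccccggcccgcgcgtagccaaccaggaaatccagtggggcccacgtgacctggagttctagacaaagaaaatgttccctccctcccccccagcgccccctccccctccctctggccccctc
Hdac1, chr5:147165388-147165637, minus strand: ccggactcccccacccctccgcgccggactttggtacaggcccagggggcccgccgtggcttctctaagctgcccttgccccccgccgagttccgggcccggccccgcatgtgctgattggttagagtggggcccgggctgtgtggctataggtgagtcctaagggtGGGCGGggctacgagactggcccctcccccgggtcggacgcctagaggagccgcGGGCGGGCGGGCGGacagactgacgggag
The *Dnmt1* stretch held 9 CG sites and no GC box, at 61.6% G and C. The *Dnmt3a* stretch held 18 CG sites and 1 GC box, at 74.0% G and C, and the *Hdac1* stretch 23 CG sites and 4 GC boxes, 3 of them overlapping. For *Hdac3* the same window held 18 CG sites and 1 GC box. Over 33469 RefSeq promoters of this window the median was 5 CG sites, 64.1% had no more than *Dnmt1*, 12.3% had at least as many as *Hdac1*, and 30.5% held a GC box. The E2f letters TTTNGCGC were in none of the 4 windows and in 1.04% of all promoters. For each gene the first start listed under its symbol was used, and any other start was not read. The RefSeq start used for *Dnmt3a* lies 91286 bases inside the outer end of the gene, and that of *Dnmt1* 564 bases inside. The genes span chr8:27716797-27763405 (*Dnmt1*), chr6:32507316-32621678 (*Dnmt3a*), chr5:147138328-147165387 (*Hdac1*) and chr18:30021847-30041061 (*Hdac3*). The methylation of these stretches was not analysed here.

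Muscle markers were high in every pup. Of 22 skeletal muscle markers 14 had a row, and the values of skeletal actin (*Acta1*) lay between 15.15 and 15.41 and those of the muscle creatine kinase (*Ckm*) between 14.83 and 15.06 in the 6 pups. The summed linear signal of the muscle list was 297772 to 316574 in LBW pups and 284498 to 304916 in ABW pups. Markers of other tissues differed between the pups. Of 14 bone and osteoclast markers 12 had a matched row, and all 12 had a higher mean in LBW pups. The threshold of the methods, an unadjusted p under 0.05 with at least a 1.5-fold difference, was passed by 6 of them. Over all features 4.27% passed it, 2.38% with the higher mean in LBW pups. A marker without a matched row may still be on the arrays, as the paper lists *Runx2* among its genes higher in LBW pups. The summed signal of the 12 was 48793 in LBW pup 1, 12494 in LBW pup 2 and 77849 in LBW pup 3, against 10854 to 11820 in ABW pups. Neutrophil precursor markers were higher in 4 of 6 and ranged in sum from 7467 to 13819 in LBW and from 5121 to 5679 in ABW pups. Adipocyte markers were lower in 10 of 11, with sums of 61634 to 76689 in LBW and 73348 to 100202 in ABW pups. In whole tissue, fewer cells of a type and less RNA per cell cannot be told apart.

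*Dnmt1*, the maintenance methyltransferase, had nearly the same mean in both groups but a wider spread in LBW pups. Its values were 12.20, 11.80 and 12.39 in LBW pups 1 to 3 and 12.00, 12.09 and 12.13 in ABW pups 1 to 3. LBW pups 1 and 3 were above all ABW pups and LBW pup 2 was below all of them, so that the groups overlapped. The means were 12.13 ± 0.30 and 12.07 ± 0.07 (SD, n = 3 each), a fold change of 1.04 (95% interval 0.801 to 1.36, limma adjusted p = 0.909; exact permutation p = 0.8). The LBW values spanned 0.59 and the ABW values 0.13. Without LBW pup 3 the log2 difference turned from 0.06 to −0.07, and without LBW pup 2 it was 0.23.

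The 2 LBW pups with high *Dnmt1* were also those with high bone markers. Osteocalcin (*Bglap*), a matrix protein of osteoblasts, had values of 13.10, 8.80 and 12.82 in LBW pups 1 to 3 and of 7.91 to 8.02 in ABW pups. Bone sialoprotein (*Ibsp*) was at 13.63, 9.86 and 14.19 in LBW pups 1 to 3 and at 7.36 to 8.47 in ABW pups. The summed signal of 5 cartilage markers was 19603, 12012 and 24638 in LBW pups 1 to 3, against 11371 to 14213 in ABW pups. Most of this sum was 1 gene, *Col2a1*, at 14.07, 13.48 and 14.28 in LBW pups 1 to 3 and at 13.41 to 13.72 in ABW pups. Its groups overlapped (limma adjusted p = 0.587). Erythroid markers ran the other way in LBW pups, with means over 7 genes of −0.42, 0.29 and −0.76 in LBW pups 1 to 3 and of 0.33, 0.04 and −0.37 in ABW pups 1 to 3, relative to the ABW mean on the log2 scale. The part of bone, cartilage or blood cells in the *Dnmt1* values was not tested.

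**Figure D1:**
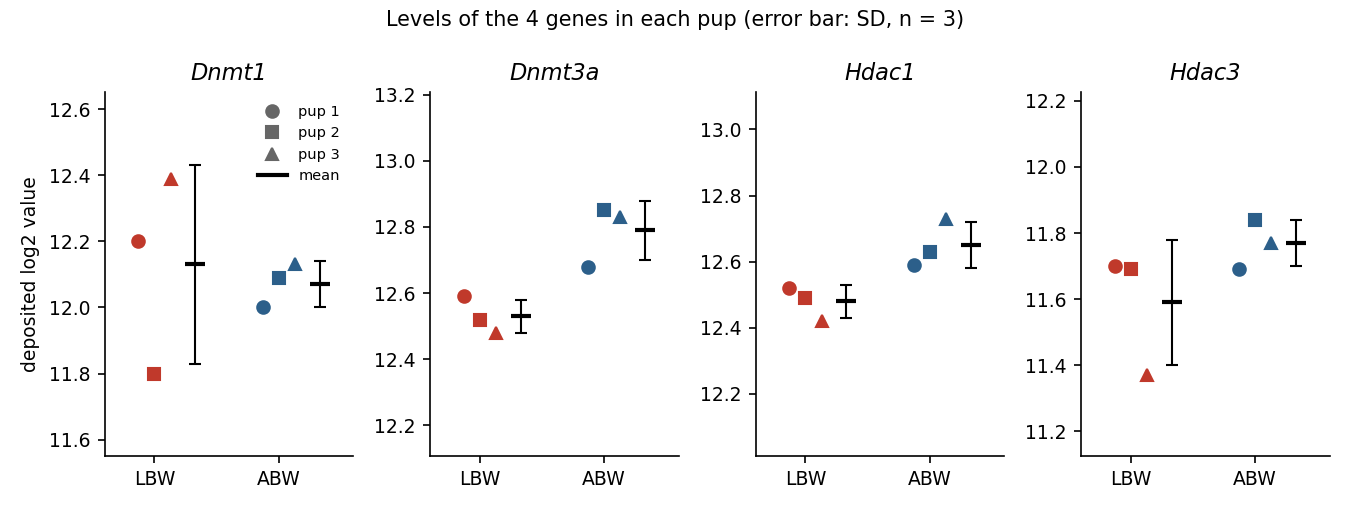
Deposited log2 value (vertical axis) of *Dnmt1*, *Dnmt3a*, *Hdac1* and *Hdac3* in each pup, with 1 point per pup and the mean and SD of 3 pups beside the points. *Dnmt1* values of LBW pups lie on both sides of the ABW values. All LBW values of *Dnmt3a* and *Hdac1* lie below the lowest ABW value, as in 10.1% of all features.

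*Dnmt3a*, the de novo enzyme, was lower in every LBW pup than in any ABW pup, by a small margin. The values were 12.59, 12.52 and 12.48 in LBW pups 1 to 3 and 12.68, 12.85 and 12.83 in ABW pups 1 to 3. A gap of 0.09 separated the highest LBW pup from the lowest ABW pup. The means were 12.53 ± 0.05 and 12.79 ± 0.09 (SD, n = 3 each), a log2 difference of −0.26 ± 0.09 (SE) or a fold of 0.836 (95% interval 0.721 to 0.969). The unadjusted limma p was 0.0246 and the adjusted p 0.34, and the exact permutation p was 0.1, the smallest that 3 against 3 pups can give. The difference did not reach 1.5-fold, so *Dnmt3a* did not pass the threshold of the methods. Of all features, 6.73% had an unadjusted p under 0.05 with the lower mean in LBW pups and 5.63% with the higher mean. In 10.1% of features every LBW value was below every ABW value, and in 7.27% every LBW value was above. Leaving out LBW pup 2 or 3 or ABW pup 2 or 3 gave unadjusted p-values of 0.059, 0.062, 0.0829 and 0.0718.

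Set against each other, the maintenance and the de novo enzyme did not part the groups completely. Each value was first taken as a deviation from the gene's own mean over the 6 pups, since levels of different probes cannot be compared. *Dnmt1* minus *Dnmt3a* was then 0.17, −0.16 and 0.47 in LBW pups 1 to 3 and −0.13, −0.21 and −0.14 in ABW pups 1 to 3. LBW pups 1 and 3 exceeded all ABW pups, while LBW pup 2 fell within the ABW values. The means were 0.16 ± 0.32 and −0.16 ± 0.04 (SD, n = 3 each), a difference of 0.32 or 1.25-fold in the ratio of the 2 transcripts. No test was made of this quantity. Without LBW pup 2 the difference was 0.48 and without LBW pup 3 it was 0.16.

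**Figure D2:**
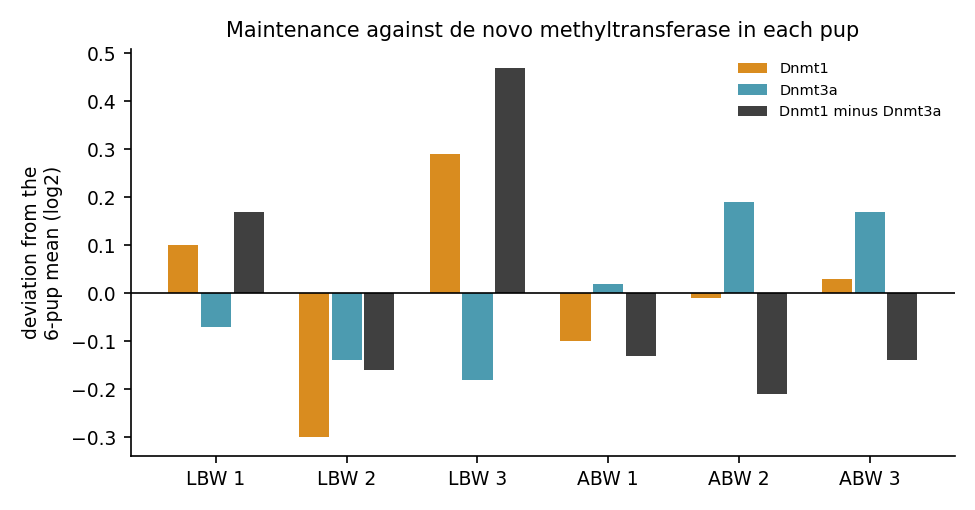
Deviation of *Dnmt1* and of *Dnmt3a* from the mean of the 6 pups (vertical axis, log2) in each LBW and ABW pup. *Dnmt3a* is below 0 in the 3 LBW pups and above 0 in the 3 ABW pups, while *Dnmt1* is 0.10 and 0.29 in LBW pups 1 and 3 and −0.30 in LBW pup 2.

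*Hdac1*, the deacetylase of the retinoblastoma repressor complex, was also lower in each LBW pup than in each ABW pup. LBW pups 1 to 3 had values of 12.52, 12.49 and 12.42, and ABW pups 1 to 3 had 12.59, 12.63 and 12.73. The groups were apart by 0.07, which equals the SD of the ABW pups. Of all features, 10.1% had every LBW value below every ABW value, and 7.27% had every LBW value above. Means of 12.48 ± 0.05 and 12.65 ± 0.07 (SD, n = 3 each) gave a log2 difference of −0.17 ± 0.08 (SE) and a fold of 0.887 (95% interval 0.771 to 1.02). Neither limma (unadjusted p = 0.0812, adjusted p = 0.463) nor the exact permutation test (p = 0.1, the smallest possible) reached 0.05. 

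*Hdac3*, the deacetylase of NCoR and SMRT, had a lower mean in LBW pups that rested on 1 pup. The values were 11.70, 11.69 and 11.37 in LBW pups 1 to 3 and 11.69, 11.84 and 11.77 in ABW pups 1 to 3. LBW pups 1 and 2 stood level with ABW pup 1, and LBW pup 3 stood below all others. Means of 11.59 ± 0.19 and 11.77 ± 0.07 (SD, n = 3 each) differed by −0.18 ± 0.12 (SE), a fold of 0.881 (95% interval 0.723 to 1.07, limma adjusted p = 0.576; exact permutation p = 0.3). Without LBW pup 3 the difference was −0.07.

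Across the 4 genes, 3 had a lower mean in LBW pups and 1 a higher one, with a median log2 difference of −0.18, while the median over all features was −0.02 and 55.6% of features were lower in LBW pups. None of the 4 passed the threshold of the methods, which 4.27% of all features did (1.89% lower and 2.38% higher in LBW pups), and none passed limma with an adjusted p under 0.05, which 0 of 26299 features did against 3250 at an unadjusted p under 0.05. *Dnmt3a* was the only member with an unadjusted limma p under 0.05, where the share over all features was 12.4%. In each of the 4 genes the 95% interval lay within 1.5-fold in both directions, and so did the intervals of 66.6% of all features. The same held for each of the 68 intervals of these genes over the main fit and all alternatives, the widest bounds being −0.57 and 0.57 on the log2 scale. The 2-fold threshold reuses the main fit, so its intervals repeat the main ones.

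Within the LBW group the order of the pups was alike for *Dnmt3a* and *Hdac1*, pup 1 highest and pup 3 lowest. LBW pup 3 had the highest *Dnmt1* value of all pups and the lowest *Dnmt3a*, *Hdac1* and *Hdac3* values. In the same pup the bone markers were at their highest and the adipocyte markers at their lowest, with list means of 3.45 and −1.17 relative to the ABW mean on the log2 scale. ABW pup 1 had the lowest *Dnmt1*, *Dnmt3a*, *Hdac1* and *Hdac3* values of its group, and its adipocyte list mean was −0.53 relative to the group. Other lists differed between the pups too. On the same scale macrophage markers were at −0.24, −0.24 and −0.29 in LBW pups 1 to 3 and at −0.32, 0.11 and 0.21 in ABW pups 1 to 3, neutrophil precursor markers were at 1.49, 0.72 and 1.40 against −0.05, 0.08 and −0.03, and muscle markers were at 0.06, 0.09 and 0.14 against 0.10, −0.05 and −0.05. The part of adipocyte, macrophage, neutrophil or muscle content in the *Dnmt3a*, *Hdac1* and *Hdac3* values was not tested.

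**Figure D3:**
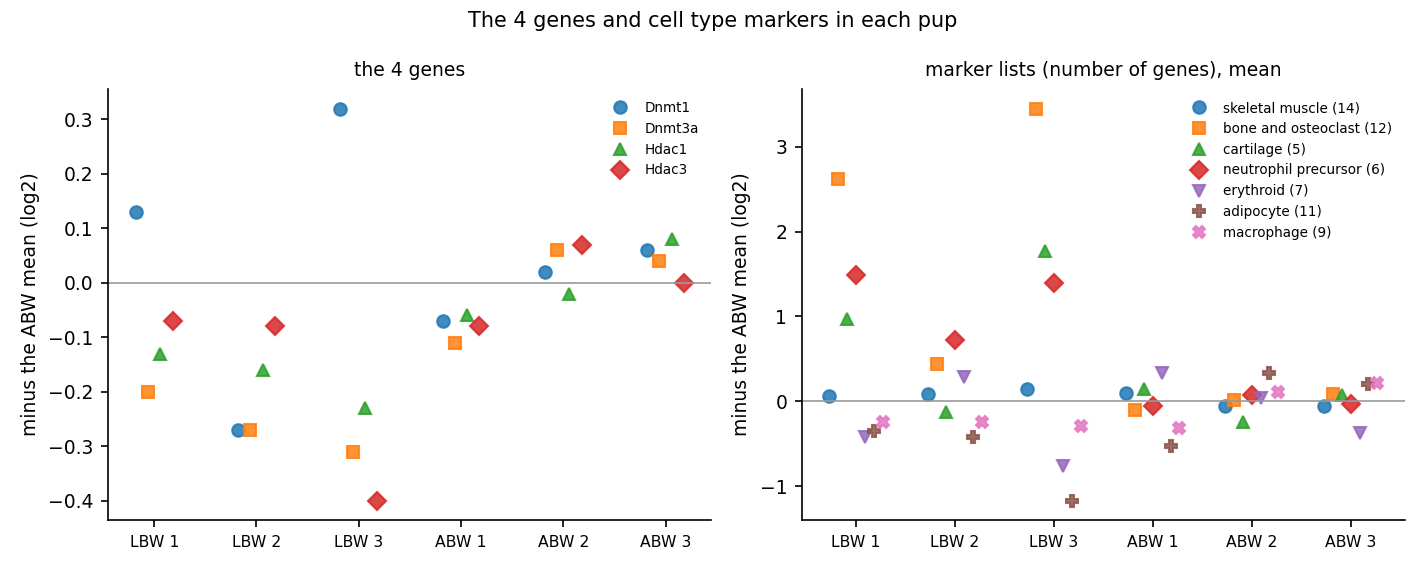
Value of each pup minus the ABW mean (vertical axes, log2, on different scales) for the 4 genes (left) and for the mean of each cell type marker list, with the number of genes that had a matched row (right). Bone and osteoclast markers are at 2.62, 0.44 and 3.45 in LBW pups 1 to 3, the order in which *Dnmt1* goes from pup 2 to pup 1 to pup 3.

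The genes most alike to 3 of the members were sought over 9626 named symbols by Pearson correlation across the 6 pups, as a description without a test. For *Dnmt1* these were *Pth1r* (r = 0.982), the receptor of parathyroid hormone, then *Usp18* (0.975), *Ankh* (0.972), a pyrophosphate transporter, *Bicd2* (0.971) and *Tbkbp1* (0.97). *Pth1r* was at 10.49, 9.65 and 11.04 in LBW pups 1 to 3 and at 10.02 to 10.27 in ABW pups, with pups 1 and 3 high and pup 2 low as for *Dnmt1*. For *Dnmt3a* they were *Ribc2* (0.994), *Rit2* (0.993), *Rsad2* (0.99), *Lrrc4* (0.988) and *Odf4* (0.987). For *Hdac1* they were *Mfap4* (0.998), a protein of elastic fibres, *St8sia4* (0.993), *Or5h26* (0.99), *Lgals3bp* (0.984) and *Pyy* (0.983). Several of these rows were dim. *Or5h26* lay between 4.66 and 4.79, near the lowest value on the arrays, 4.577. *Usp18*, *Bicd2*, *Tbkbp1*, *Ribc2*, *Rit2*, *Rsad2*, *Odf4* and *Pyy* lay below the array medians in every pup. Without a detection call, signal and background cannot be told apart in such rows. The coefficients of *Dnmt3a* and *Hdac1* include the difference between the groups, and with 6 pups they are a description alone.

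Genes that work with the 4 enzymes were read from 13 lists, of which 1, the other histone deacetylases, had no matched row. Of 210 listed genes 101 had a row, 48 with a higher and 53 with a lower mean in LBW pups, and their median log2 difference was −0.01. The threshold of the methods was passed by 2, *Sik1* and *Fen1*, or 1.98% against 4.27% of all features. An unadjusted p under 0.05 was reached by 17, or 16.8% against 12.4%. None had an adjusted p under 0.05.

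Partners of DNA methylation gave no called gene. Of the other methyltransferases and their partners 3 of 8 had a row. The replication clamp *Pcna*, which brings Dnmt1 to the fork, differed by 0.06 on the log2 scale (limma adjusted p = 0.887). The tRNA methyltransferase *Trdmt1* differed by 0.28 (limma adjusted p = 0.491) and the cofactor *Dnmt3l* by −0.13 (limma adjusted p = 0.695). Among 8 of 10 genes of 5-methylcytosine oxidation and repair, 6 were higher and 2 lower, and the widest differences were −0.67 for the cytidine deaminase *Apobec1* (limma adjusted p = 0.474) and 0.61 for the stress-induced *Gadd45g* (limma adjusted p = 0.565). Of the genes that supply S-adenosylmethionine and one-carbon units 13 of 20 had a row, 5 higher and 8 lower, and only thymidylate synthase (*Tyms*) had an unadjusted limma p under 0.05, with a fold of 0.77 (limma adjusted p = 0.318).

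Partners of the deacetylases were divided in direction. In the corepressor list 8 of 26 genes had a row, 4 higher and 4 lower, and the NuRD subunit *Gatad2a* had a fold of 1.26 (limma adjusted p = 0.305). Its values were 11.41, 11.38 and 11.24 in LBW pups 1 to 3 and 11.02, 11.11 and 10.90 in ABW pups, without overlap and opposite in direction to *Hdac1*. Of 6 acetyltransferases with a row, which oppose the deacetylases, 3 were higher and 3 lower, and *Hat1*, the acetyltransferase of newly made histones, had a fold of 0.847 (limma adjusted p = 0.378). The 2 other sirtuins with a row, *Sirt5* and *Sirt6*, differed by −0.14 and −0.01.

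While no class II deacetylase had a matched row, 18 of 21 of their partners and regulators did, 9 higher and 9 lower. *Sik1*, a kinase that phosphorylates class IIa deacetylases so that they leave the nucleus, rose 1.56-fold in LBW pups at the unadjusted threshold (limma adjusted p = 0.243). Its values were 11.83, 11.88 and 11.78 in LBW pups 1 to 3 and 11.37, 11.25 and 10.95 in ABW pups 1 to 3, without overlap. Without ABW pup 3 its fold was 1.44, under the threshold of 1.5-fold. *Mef2d*, a muscle transcription factor that class IIa deacetylases bind, had a fold of 1.17 (limma adjusted p = 0.356), also without overlap. The 14-3-3 proteins of the list gave differences from −0.04 to 0.05 on the log2 scale.

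Of the partners and regulators of Sirt1 11 of 17 had a row, 3 higher and 8 lower, and 3 of NAD metabolism had an unadjusted limma p under 0.05. The NAD-making enzyme *Nmnat1* was at 9.20, 9.58 and 9.25 in LBW pups 1 to 3 and at 9.97, 9.91 and 9.82 in ABW pups, a fold of 0.678 (limma adjusted p = 0.259). The NAD-degrading enzyme *Cd38* had a fold of 0.668 (limma adjusted p = 0.264), at 8.28, 8.60 and 8.19 against 9.03, 8.79 and 8.99. *Nadsyn1*, the NAD synthetase, had a fold of 0.752 (limma adjusted p = 0.338). Its values lay below the array medians in every pup, where signal and background cannot be told apart. All 3 were lower in each LBW pup than in each ABW pup, and none of the 3 reached 1.5-fold. Over all features 12.4% had an unadjusted p under 0.05, 6.73% with the lower mean in LBW pups. In 10.1% of features every LBW value was below every ABW value. The 3 are also the widest differences of their list, so their lack of overlap adds no separate support.

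**Figure D4:**
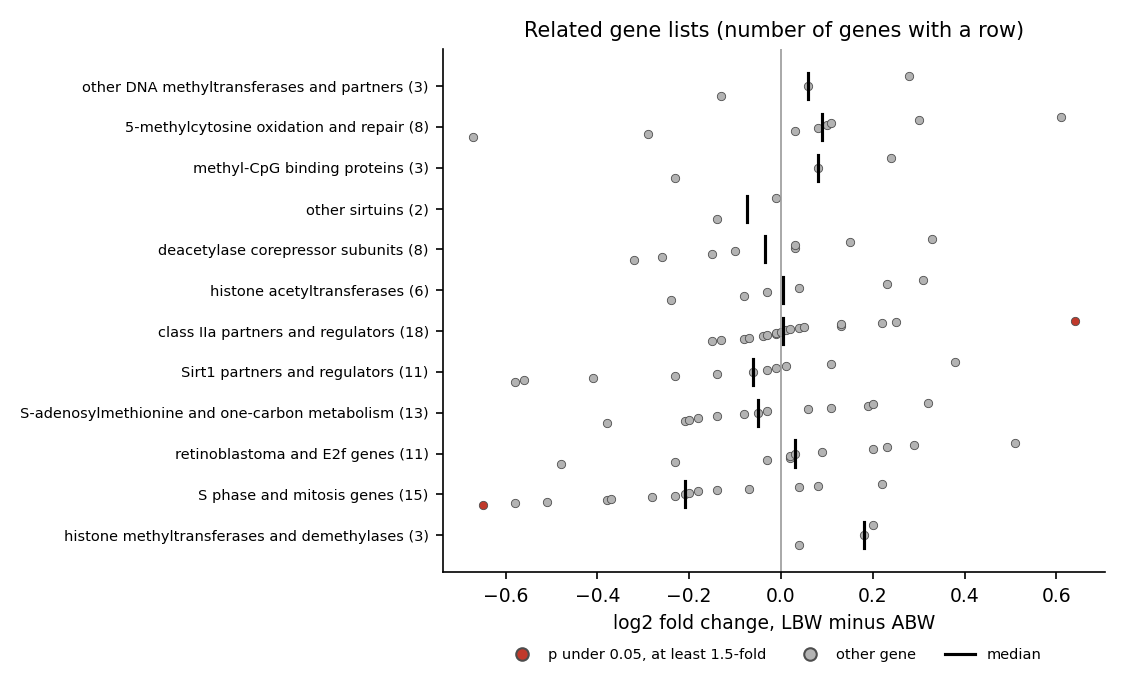
Log2 fold change of LBW minus ABW (horizontal axis) of each gene of the related lists with a matched row, 1 point per gene, with a bar at the median of each list and red points for the 2 genes past an unadjusted p under 0.05 with at least 1.5-fold. The median of the S phase and mitosis genes is −0.21, and 12 of its 15 genes are below 0.

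In the list of S phase and mitosis genes most had a lower mean in LBW pups, while the S phase genes went both ways. Of 31 S phase and mitosis genes 15 had a row, 12 lower and 3 higher, with a median log2 difference of −0.21 against −0.02 over all features, and 5 of the 12 had an unadjusted limma p under 0.05. Over all features 55.6% were lower and 6.73% were lower at that p. The 5 were *Ccnb1*, *Plk1*, *Cdk1* and *Aurka* of mitosis and *Fen1* of S phase. The 3 higher genes, *Lig1*, *Mcm7* and *Rrm1*, belong to S phase, and 1 of them, *Lig1*, had an unadjusted limma p under 0.05. The nuclease *Fen1*, which trims Okazaki fragments, fell to 0.636-fold at the unadjusted threshold (limma adjusted p = 0.287), with 7.19, 7.74 and 7.34 in LBW pups 1 to 3 and 8.0, 7.93 and 8.30 in ABW pups. Its fold was 0.69 without LBW pup 1 and 0.687 without ABW pup 3, both short of 1.5-fold. All *Fen1* values lay below the array medians, where signal and background cannot be told apart without a detection call. Cyclin B1 (*Ccnb1*), which drives entry into mitosis, had values of 11.42, 11.45 and 11.45 in LBW and of 12.14, 11.91 and 12.01 in ABW pups, a fold of 0.668 (limma adjusted p = 0.214). The mitotic kinase *Plk1* had a fold of 0.703 (limma adjusted p = 0.25). DNA ligase 1 (*Lig1*), which seals the fragments that *Fen1* trims, went the other way, with 13.27, 13.13 and 13.09 in LBW and 12.89, 12.99 and 12.95 in ABW pups (fold 1.16, limma adjusted p = 0.395).

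In the retinoblastoma and E2f list 11 of 23 genes had a row, 8 higher and 3 lower. An unadjusted limma p under 0.05 was reached by 2 of the higher genes, *Ccnd1* and *Ccnd3*, and by 1 lower gene, *Rbl2*. Over all features 5.63% were higher and 6.73% lower at that p. *Rbl2*, a pocket protein of the retinoblastoma family, was at 9.78, 9.76 and 9.76 in LBW and at 10.09, 10.26 and 10.40 in ABW pups, a fold of 0.717 (limma adjusted p = 0.25). Of the 3 D cyclins, which act with Cdk4 on the retinoblastoma protein, *Ccnd2* had a fold of 1.02 with overlap (limma adjusted p = 0.976). The others had higher means, *Ccnd1* with a fold of 1.23 (limma adjusted p = 0.404) and *Ccnd3* with a fold of 1.42 (limma adjusted p = 0.4). *Ccnd3* values were 12.87, 13.02 and 13.02 in LBW and 12.70, 12.72 and 11.99 in ABW pups, so that the size of the difference rested on ABW pup 3. *Cdkn1a*, an inhibitor of cyclin-dependent kinases, was at 13.96, 14.07 and 14.05 in LBW and at 13.93, 13.83 and 13.73 in ABW pups, without overlap (limma adjusted p = 0.444).

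**Figure D5:**
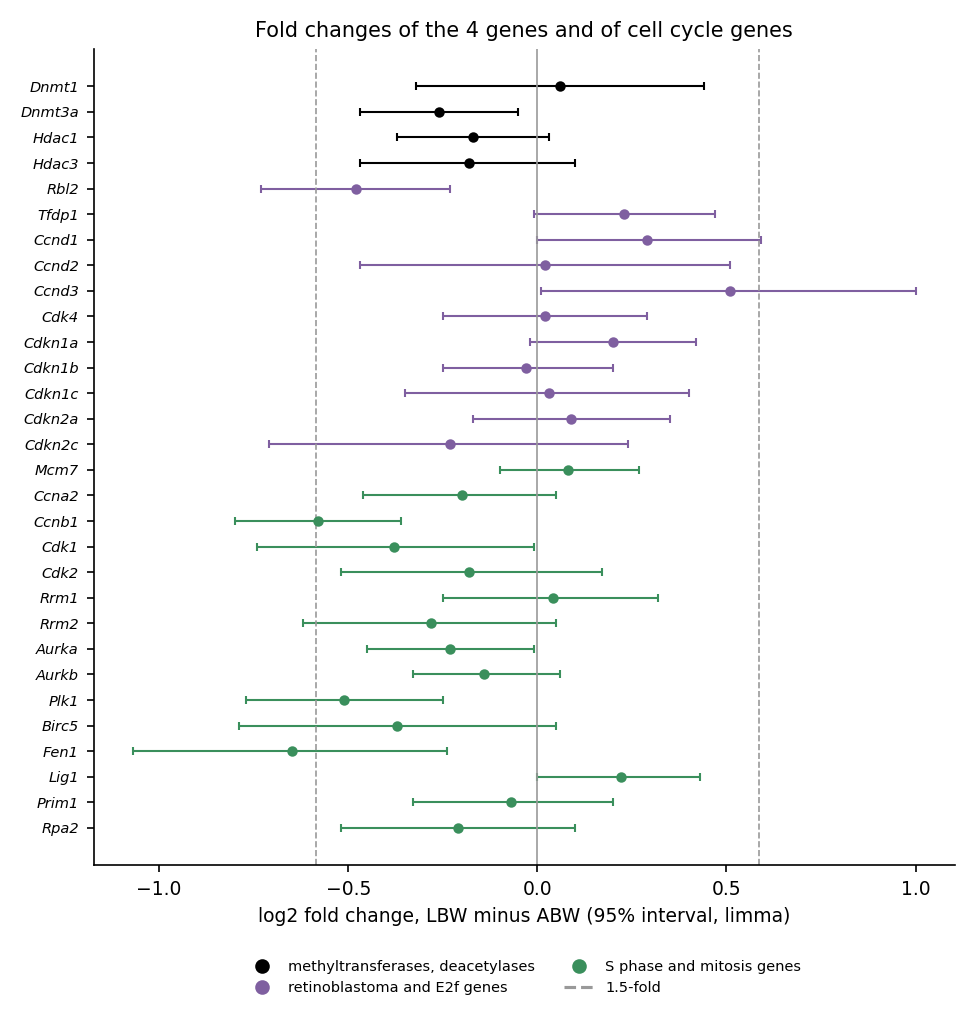
Log2 fold change of LBW minus ABW with its 95% limma interval (horizontal axis, n = 3 pups each) for the 4 genes, the retinoblastoma and E2f genes and the S phase and mitosis genes, with dashed lines at 1.5-fold. The intervals of the 4 genes end inside the dashed lines, whereas those of *Rbl2*, *Ccnb1*, *Cdk1*, *Plk1* and *Fen1* are below 0 and cross the lower line. The interval of *Ccnd3*, 0.01 to 1.0, is above 0 and crosses the upper line, and those of *Ccnd1* and *Lig1* begin just above 0.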

How the data were processed

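Muscle RNA from 3 pups of each birth weight group was hybridised to 6 NimbleGen arrays holding 5 probes per transcript. The authors deposited log2 values normalised between arrays with R and Bioconductor scripts, and their processing notes name RMA. Probe-level data were not used here, and the background correction cannot be varied from these values. Of 26419 rows 36.9% were named through a RefSeq gene table of build GRCr8. Rows of a symbol were averaged, giving 26299 features. The array design follows RGSC3.4, so gene positions and promoters come from GRCr8 and probes have no position here.

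LBW minus ABW differences of the log2 values were tested 2-sided by lmFit and eBayes of limma (version 3.58.1, R 4.3.3), with Benjamini-Hochberg adjustment over all features, after the code had been tested on simulated data. The threshold of the methods was an unadjusted p under 0.05 and at least 1.5-fold. Single members also had a 2-sided exact permutation test. There is no read depth in array data, and precision is limited by how many arrays there are. Named genes are all members with a row, the called genes and the 3 widest differences of each related list, and the 5 genes most correlated with *Dnmt1*, *Dnmt3a* and *Hdac1*. Other genes named with values were chosen after their values were seen. Summed marker signals are sums of values taken out of the log2 scale. The members, lists and tests were chosen with earlier results of these data known. Alternatives were other normalisations, filters, variance models, an equal-variance 2-sample t-test, a 2-fold threshold, a replicate block and leaving out each pup. The paper names Student's t-test for its data in general and no test for the arrays. Pups of the same number deviated together only weakly (correlations of 0.087, 0.104 and 0.055), so the number was not taken as a pairing.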

Additional observations from a re-analysis of the deposited data

How the results depend on the processing

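Of 122 alternative values 114 kept the direction and the side of the threshold, or stayed within the limit set for a count. The member values at the 2-fold threshold come from the main fit and could not change. Transcripts passing the methods' threshold numbered 1124 in the main fit, 584 with the 2-sample t-test and 335 at 2-fold. They numbered 798 to 1546 when 1 pup was left out. No transcript had an adjusted p under 0.05 except without LBW pup 2, where 125 did (range 0 to 125). *Dnmt1* reversed to −0.07 without LBW pup 3, within a range of −0.07 to 0.23. Leaving out pups gave −0.31 to −0.23 for *Dnmt3a*, −0.20 to −0.14 for *Hdac1*, −0.24 to −0.07 for *Hdac3* and 0.16 to 0.48 for *Dnmt1* minus *Dnmt3a*. In 10 of 15 alternatives the unadjusted p of *Dnmt3a* stayed under 0.05, and its adjusted p lay between 0.26 and 0.491 over the alternatives that kept all pups. *Hdac1* had an unadjusted p of 0.0242 with the 2-sample t-test (adjusted p = 0.498). The related genes past the threshold numbered 2, then 4 with arrays centred on their medians (*Ccnb1* and *Cd38* added), and 2 to 5 without 1 pup. *Sik1* and *Fen1* were both lost without ABW pup 3 (folds of 1.44 and 0.687), and *Fen1* without LBW pup 1 (0.69), by the fold alone, since the unadjusted p stayed under 0.05. The causes were not tested.

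A replicate block by pup number gave 1230 transcripts past the threshold, a *Dnmt1* minus *Dnmt3a* difference of 0.32, 12 lower S phase and mitosis genes and 3 related genes past it (*Apobec1* added). The unadjusted p of *Dnmt3a* was 0.0598 with the block. No member was called in any alternative. The class I against class II comparison and its class IIa form were not run, since no class II row was matched.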

Other observations

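Few genes of histone methylation had a row that could be named. Of 22 listed histone methyltransferases and demethylases 3 had a row, and all 3 had a higher mean in LBW pups, with a median log2 difference of 0.18 and none at an unadjusted limma p under 0.05. The lysine methyltransferase *Ehmt2*, which acts with Dnmt1 at replicating chromatin, was at 11.84, 11.68 and 11.94 in LBW pups 1 to 3 and at 11.68, 11.73 and 11.51 in ABW pups. The arginine methyltransferase *Carm1*, a coactivator of Mef2 factors in muscle, was at 12.00, 11.89 and 12.01 in LBW pups and at 11.88, 11.66 and 11.75 in ABW pups, without overlap. *Prmt1*, another arginine methyltransferase, was at 13.29, 13.41 and 13.03 in LBW pups and at 13.12, 13.30 and 13.19 in ABW pups, with overlap.

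Macrophage markers were lower in 6 of 9 genes, with sums of 29243 to 33001 in LBW and 27255 to 36998 in ABW pups, and erythroid markers in 6 of 7, with sums of 40304 to 43076 in LBW and 42245 to 47183 in ABW pups. Most of the erythroid sum was 1 gene, the haemoglobin gene *Hbb*, at 15.13 to 15.27 in LBW and 15.18 to 15.30 in ABW pups. Muscle markers were higher in 9 of 14 and lower in 5, with a median log2 difference of 0.06.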
